A study of Homo sapiens with 4 samples.

Results

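The mRNAs of the molecular motors of the cytoskeleton were followed in RNA recovered by immunoprecipitation of KIAA1429, also known as VIRMA, a scaffold subunit of the complex that writes N6-methyladenosine (m6A) on mRNA. The members were chosen by gene name as numbered kinesins (KIF), cytoplasmic dynein subunits (DYNC, DYNLL, DYNLRB and DYNLT) and numbered myosins (MYO), which gave 53 of 13300 gene names, with 30 kinesins, 11 dynein subunits and 12 myosins. The samples were HCCLM3 cells, an established human hepatocellular carcinoma line, and no other treatment or genotype is given in the labels. RNA immunoprecipitation followed by sequencing (RIP-seq) was done with an antibody against KIAA1429 (KIAA1429 RIP, 2 libraries) or with normal IgG, the background control (IgG RIP, 2 libraries). The labels do not say whether libraries of a group came from separate cultures, so p-values measure only the spread between these libraries, which may be technical. No library of unprecipitated RNA was analysed here, so a level in either group is a level in a precipitate and not in the cell.

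Kinesins and dyneins are ATPases that walk on microtubules, most kinesins toward the plus end and cytoplasmic dynein toward the minus end, and myosins walk on actin filaments. Transport kinesins carry vesicles, organelles and RNA, whereas mitotic kinesins build the spindle, move chromosomes and complete cytokinesis. Cytoplasmic dynein 1 carries cargo to the cell centre and dynein 2 works inside cilia.

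Values were FPKM (fragments scaled to the length of the transcript and to the size of the library), summed over the listed transcripts of each gene. Differences are KIAA1429 RIP minus IgG RIP on the log2(FPKM + 1) scale, which understates the change of genes at low levels. The sums of FPKM per library ran from 295573 to 340300, the number of reads behind them is unknown, and Spearman's rho between the libraries of a group, across genes, was 0.849 for IgG RIP and 0.872 for KIAA1429 RIP. The motor genes took 0.342% and 0.259% of the sum in the IgG RIP libraries and 0.322% and 0.240% in the KIAA1429 RIP libraries, so the groups overlapped. Hepatocyte markers were listed for 9 of 9 genes, with albumin (ALB) between 53.5 and 76.3 FPKM and HNF4A between 0.305 and 1.11 FPKM. Epithelial markers were listed for 4 of 5 genes, fibroblast markers for 2 of 4, leukocyte markers for 1 of 4 and endothelial markers for 0 of 3.

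The sequences below are shown because the values of these transcripts were among those that differed most between the groups, or because they tell a gene from its close relatives. They were read on the strand of the transcript from the GENCODE transcripts on GRCh37, the build of the deposited files. KIF1B and KIF13A carry membrane cargo toward microtubule plus ends. KIF1B-204 contains a coding microexon of 18 bases (chr1:10333072-10333089, plus strand) that KIF1B-201 lacks, and KIF13A-201 contains a coding cassette exon of 105 bases (chr6:17771345-17771449, minus strand) that KIF13A-204 lacks. Capitals mark the microexon and the first 15 bases of the cassette exon.
KIF1B-204: gaggtgGATAACTGCACTAGCAAGagtaaa
KIF1B-201: gccttggccgaggtgagtaaaaagaagaag
KIF13A-201: cttctaagccaggagAGCATGCCTCCACCT
KIF13A-204: cttctaagccaggaggactctgaggaggaa

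The kinesin-2 motors KIF3A, KIF3B and KIF3C are paralogs, so the coding stretch of the P-loop, the ATP-binding loop of the motor domain, was compared between them. It lies at chr5:132062150-132062173 (minus strand) in KIF3A, chr20:30897866-30897889 (plus strand) in KIF3B and chr2:26204475-26204498 (minus strand) in KIF3C. Capitals mark the 8 of 24 bases at which the genes are not all alike, each at the last position of a codon.
KIF3A-202: ggAcaAacCggAacAggCaaAacT
KIF3B-201: ggAcaAacTggGacAggAaaAacC
KIF3C-201: ggCcaGacGggCacTggCaaGacC

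KIF3C differed from KIF3A at 7 of the 24 bases and from KIF3B at 7, whereas KIF3A and KIF3B differed at 4. Across the listed KIF3C transcripts, 0 of 5653 stretches of 50 bases occurred in a transcript of another gene, and 0 annotated genes overlapped its exons.

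The comparison of KIAA1429 RIP with IgG RIP asks which transcripts held a larger share of the KIAA1429 precipitate than of the IgG background. FPKM is scaled to the size of each library, so the amount of RNA that each antibody recovered is not seen. Of the 53 motor genes, 49 had a mean of at least 1 FPKM and were tested, and KIF24, KIF27, KIF5A and MYO5C were below it. By limma, 0 of the 49 passed an adjusted p under 0.05 with a log2 difference beyond 1, and 0.0% of all 11361 genes tested did in either direction. The lowest adjusted p was 0.648 among motor genes and 0.515 among all genes. At an unadjusted p under 0.05, 3 motor genes were higher in KIAA1429 RIP (KIF3C, DYNC1LI1 and DYNC2LI1) against a background of 3.17% of all genes, and 0 were lower against 1.43%. A log2 difference above 1 was found in 4 motor genes, against 5.3% of all genes, and a difference below -1 in 0, against 3.7%. The count of 4 became 9 without library 1 of IgG RIP and 7 without library 2 of KIAA1429 RIP, and the count of 0 became 1, 2, 5 and 1 without library 1 of IgG RIP, library 2 of IgG RIP, library 1 of KIAA1429 RIP and library 2 of KIAA1429 RIP.

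For most motor mRNAs the difference between the KIAA1429 and IgG precipitates was small beside the spread between libraries. The libraries of the groups did not overlap in 8 of the 49 genes (16.3%), against 31.8% of all genes, with 6 higher in KIAA1429 RIP (DYNC1LI1, DYNC1LI2, DYNC2LI1, DYNLRB1, KIF13B and KIF3C; background 16.6%) and 2 lower (KIF13A and MYO9B; background 15.2%). The median size of the difference, regardless of sign, was 0.19 for motor genes and 0.32 for all genes, and the median SD of log2(FPKM + 1) between libraries of a group was 0.37 and 0.40. The median signed difference was 0.06 for motor genes, beside 0.02 for all genes. It was -0.22 without library 2 of IgG RIP and -0.15 without library 1 of KIAA1429 RIP.

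KIF3C was the motor mRNA with the largest difference. It encodes a kinesin-2 motor that pairs with KIF3A and moves cargo toward microtubule plus ends (chr2:26149465-26205618, minus strand). It was listed at 0 in both IgG RIP libraries, whereas the KIAA1429 RIP libraries held 10.2 and 9.85 FPKM. Both KIAA1429 RIP libraries were thus well above both IgG RIP libraries and differed little from each other. The difference was 3.46 (SE 0.52, adjusted p = 0.648 by limma), the sixth in rank of all 11361 genes, and its size depends on the pseudocount because the IgG RIP values are 0. A fit blocked on the replicate number gave an adjusted p of 0.037. It was above the threshold under every other alternative run, where it lay between 0.377 and 1.0.

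A gene listed at 0 in both IgG RIP libraries and above 0 in both KIAA1429 RIP libraries was uncommon. There were 47 such genes (0.414%), among which KIF3C had rank 4 by mean level. The reverse pattern was found in 27 genes (0.238%), of which 0 reached the mean level of KIF3C. Genes of either pattern, KIF3C included, passed the filter of a mean of at least 1 FPKM through a single group. The counts are thus a description and not a test. The KIF3C signal came mainly from KIF3C-201, which was listed at 0 in both IgG RIP libraries and at 9.53 and 6.98 FPKM in KIAA1429 RIP. The short KIF3C-207 was above 0 in a single library, at 2.15 FPKM in KIAA1429 RIP library 2.

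Not every annotated KIF3C transcript is in the deposited files. They list 3 of the 7 annotated transcripts and no transcript of the nonsense-mediated decay type for any gene, whereas KIF3C has 2 of that type (KIF3C-203 and KIF3C-204) that contain 99.0% of the 50-base stretches of KIF3C-201. Whether reads of the IgG RIP libraries were assigned to those transcripts was not tested. Transcripts of that type were annotated for 41.3% of the genes with this pattern of zeros and for 45.1% of all genes tested.

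KIF3A, KIF3B and KIFAP3 did not share the pattern of KIF3C. KIF3B, the other motor that pairs with KIF3A, was at 29.2 and 23.0 FPKM in IgG RIP and at 23.9 and 21.6 FPKM in KIAA1429 RIP. KIF3A was at 3.66 and 11.1 FPKM in IgG RIP and at 9.04 and 2.55 FPKM in KIAA1429 RIP. KIFAP3, the cargo adaptor of kinesin-2, was at 3.34 and 4.72 FPKM in IgG RIP and at 3.28 and 3.48 FPKM in KIAA1429 RIP. In each of the 3 the groups overlapped, with differences of -0.19 for KIF3B, -0.33 for KIF3A and -0.19 for KIFAP3. For KIF3A the leading transcript also changed between the libraries of each group.

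The m6A writer complex acts in the sequence context DRACH, of which GGAC is a frequent core, so the letters GGAC were counted on the sense strand of the most abundant listed transcript of each gene. KIF3C-201 held 36, or 6.74 per kilobase. The median was 3.32 per kilobase over the motor genes tested that had a sequence and 3.60 over all such genes. DYNC1LI1 held 3, or 1.21 per kilobase, and MYO9B, which was lower in KIAA1429 RIP, held 56, or 7.35 per kilobase. The other genes whose groups did not overlap were DYNC1LI2 (2.54 per kilobase), DYNC2LI1 (3.57), DYNLRB1 (3.02) and KIF13B (5.26), which were higher, and KIF13A (3.18), which was lower. Whether the density follows the difference between the groups was not tested. A match is a description of letters and not a methylated site.

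Of the 11 subunits of cytoplasmic dynein, 0 passed the adjusted threshold, and 10 had differences above 0, beside 51.4% of all genes, with a median of 0.27. The count was 9 with quantile normalization, where DYNC2H1 was at -0.01, and 7 without library 1 of IgG RIP, and the median was 0.12 without library 2 of IgG RIP and 0.48 without library 2 of KIAA1429 RIP. DYNC1LI1, a light intermediate chain that links dynein 1 to its cargo adaptors (chr3:32567463-32612366, minus strand), was at 4.42 and 3.68 FPKM in IgG RIP and at 10.9 and 9.25 FPKM in KIAA1429 RIP. Both KIAA1429 RIP libraries lay above both IgG RIP libraries, with a 2.48-fold ratio of means and little spread in either group. The difference was 1.13 (SE 0.41, adjusted p = 0.997 by limma). It stayed between 1.02 and 1.31 under all alternatives run, with adjusted p from 0.444 to 1.0.

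DYNC1LI2, the paralogous light intermediate chain, was at 16.4 and 12.4 FPKM in IgG RIP and at 17.3 and 17.6 FPKM in KIAA1429 RIP. The groups did not overlap, but the gap was small beside the spread in IgG RIP (difference 0.27, SE 0.34). DYNLRB1, a roadblock-type light chain, was at 48.3 and 44.2 FPKM in IgG RIP and at 81.1 and 57.4 FPKM in KIAA1429 RIP. The groups were again apart (difference 0.55, SE 0.30), but 52.1% of its 50-base stretches also occur in ENSG00000289720, a gene that overlaps it on the same strand, so its value is uncertain.

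DYNC2LI1, the light intermediate chain of dynein 2, had the second largest difference among the motor genes. Its total in IgG RIP was 0.763 and 4.55 FPKM, and in KIAA1429 RIP it was 11.7 and 6.52 FPKM. The groups did not overlap (difference 1.64, SE 0.66, adjusted p = 0.997 by limma), but the excess came from different transcripts in the 2 KIAA1429 RIP libraries. Of its 4 listed transcripts, 3 were listed at 0 in both IgG RIP libraries. A pair of these was at 5.72 and 5.68 FPKM in library 1 of KIAA1429 RIP and listed at 0 in library 2, and the remaining transcript was at 5.40 FPKM in library 2 and near 0 in library 1. The most abundant transcript over the 4 libraries went the other way, with a difference of -0.94.

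The heavy chains, which hold the motor domain, did not separate the groups. DYNC1H1, of dynein 1, was at 78.3 and 64.0 FPKM in IgG RIP and at 73.2 and 46.8 FPKM in KIAA1429 RIP, and DYNC2H1, of dynein 2, was at 5.20 and 6.09 and at 5.49 and 6.03 FPKM. The groups overlapped in both, with differences of -0.27 (SE 0.33) and 0.03 (SE 0.42). The intermediate chain DYNC1I2 had a difference of 0.15 (SE 0.37), with 31.6% of its 50-base stretches shared with the pseudogene DYNC1I2P1.

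The light chains DYNLL1, DYNLL2, DYNLT1 and DYNLT3, which bind the intermediate chains of dynein, had differences of 0.18, 0.29, 0.38 and 0.12, and their groups overlapped. DYNLL1 was the dynein mRNA with the highest level, at 83.9 and 130.2 FPKM in IgG RIP and at 126.6 and 111.6 FPKM in KIAA1429 RIP. The most abundant transcripts of DYNLL1, DYNLRB1 and DYNLT1 were 663, 662 and 730 bases long, whereas that of DYNLT3 had 2151 bases and that of DYNLL2 had 6807. Over all genes, the median difference was 0.20 in the quartile with the shortest transcripts and -0.09 in the quartile with the longest, and the part of length in these differences was not tested.

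**Figure D1:**
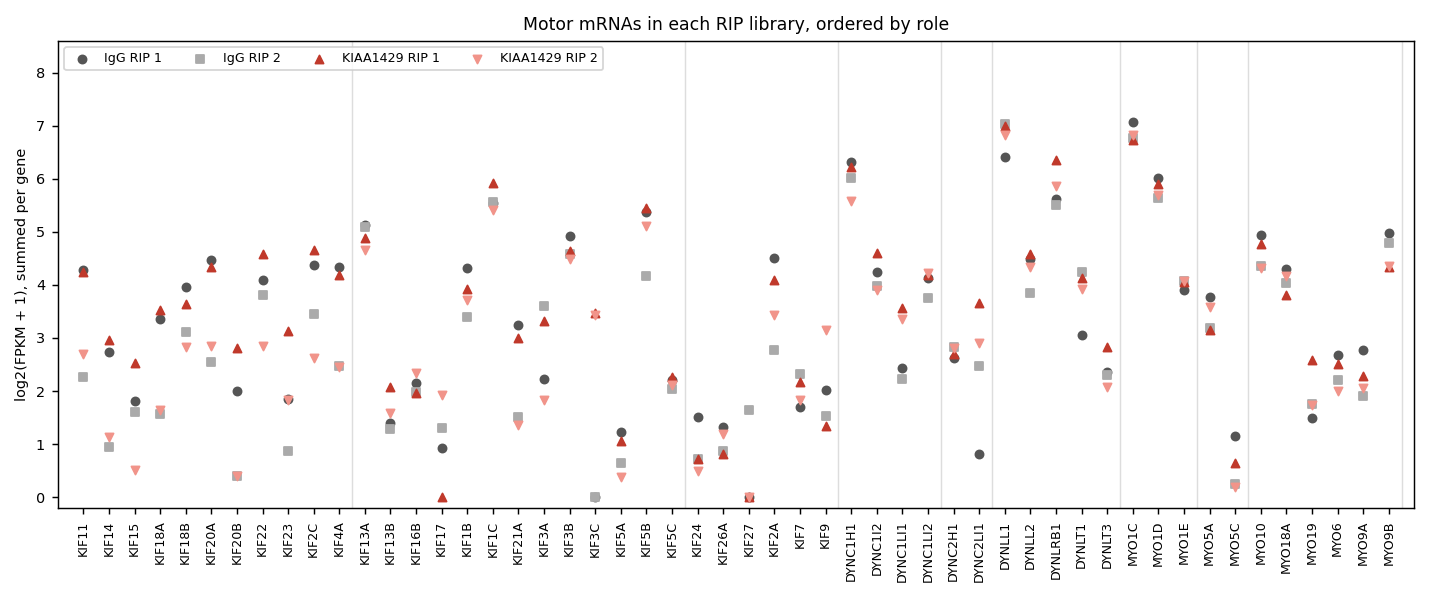
Level of 52 of the 53 motor genes as log2(FPKM + 1) (y axis) in the 4 libraries, with grey symbols for IgG RIP and red symbols for KIAA1429 RIP, ordered by role from mitotic kinesins on the left to myosins on the right. KIF3C is at 0 in both IgG RIP libraries and near 10 FPKM in both KIAA1429 RIP libraries, whereas the mitotic kinesins are split by library within each group.

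Among transport kinesins the abundant members did not separate the groups upward. KIF1C, which carries mRNAs and vesicles and had the highest level of the kinesins, was at 45.6 and 46.0 FPKM in IgG RIP and at 59.9 and 41.3 FPKM in KIAA1429 RIP. KIF5B, the heavy chain of conventional kinesin, was at 40.7 and 16.9 FPKM in IgG RIP and at 42.5 and 33.3 FPKM in KIAA1429 RIP. The groups overlapped in both, with differences of 0.12 (SE 0.31) and 0.50 (SE 0.44). KIF13A, which moves recycling endosomes, was at 33.8 and 33.2 FPKM in IgG RIP and at 28.4 and 24.2 FPKM in KIAA1429 RIP, and was lower in both KIAA1429 RIP libraries (difference -0.34, SE 0.29, adjusted p = 0.997 by limma). Among all kinesins tested, 14 differences were above 0 and 13 below, beside 51.4% of all genes above 0. When single libraries were left out, those above 0 ranged from 8 to 21, and the share of all genes from 44.4% to 55.7%.

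Of the 11 myosins tested, 8 differences were below 0, beside 5517 of all 11361 genes, with a median of -0.12. With quantile normalization 9 were below 0, beside 5924 of all genes. Without library 1 of IgG RIP 3 were below 0 (5019 of all genes) and the median was 0.15 (0.09 for all genes). Without library 2 of KIAA1429 RIP 5 were below 0 (5182 of all genes) and the median was 0.06 (0.06 for all genes). MYO9B, a myosin with a RhoGAP domain, was at 30.6 and 26.8 FPKM in IgG RIP and at 19.2 and 19.4 FPKM in KIAA1429 RIP. Both KIAA1429 RIP libraries were below both IgG RIP libraries, and the difference was the lowest of the tested motor genes (-0.55, SE 0.30, adjusted p = 0.997 by limma). It lay between -0.64 and -0.40 under all alternatives run.

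Class I myosins, which link membranes to actin, held the highest levels of the family. MYO1C was at 133.6 and 108.0 FPKM in IgG RIP and at 104.7 and 111.8 FPKM in KIAA1429 RIP, and MYO1D was at 63.3 and 48.6 and at 58.4 and 50.4 FPKM. The groups overlapped in both, with differences of -0.15 and -0.03. MYO19, which moves mitochondria on actin, was at 1.81 and 2.38 FPKM in IgG RIP and at 5.01 and 2.35 FPKM in KIAA1429 RIP, so that the difference of 0.54 (SE 0.55) rested on library 1 of KIAA1429 RIP.

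The mitotic kinesins differed little between antibodies but strongly between the libraries of each group. The list held 11 measured genes (KIF4A, KIF11, KIF14, KIF15, KIF18A, KIF18B, KIF20A, KIF20B, KIF22, KIF23 and KIF2C), whose median difference between the groups was 0.09, and the groups overlapped in all 11. Their summed level was 132.4 FPKM in library 1 and 49.9 FPKM in library 2 of IgG RIP, and 148.7 and 40.3 FPKM in libraries 1 and 2 of KIAA1429 RIP. In both groups library 1 was the higher for 11 of the 11 genes, a pattern found in 3967 of all 11361 genes. The log2 difference between library 1 and library 2 was above 1 in both groups for 6 of the 11 (KIF11, KIF14, KIF18A, KIF20A, KIF20B and KIF4A), against 3.05% of all genes, and 1.58% of all genes were beyond 1 in the reverse direction. The precipitates came from lysates of many cells, so fewer dividing cells and less of these mRNAs per cell cannot be told apart. Neither was tested, and base composition, described below, also moved with the libraries.

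Examples, chosen after their values were seen, show the size of this split. KIF11, the motor that pushes spindle poles apart, was at 18.5 and 3.83 FPKM in libraries 1 and 2 of IgG RIP and at 17.9 and 5.52 FPKM in those of KIAA1429 RIP. KIF20A, which acts in cytokinesis, was at 21.1 and 4.84 FPKM and at 19.1 and 6.23 FPKM. KIF4A, a chromosome-bound motor, was at 19.3 and 4.52 FPKM and at 17.3 and 4.45 FPKM. For each of these genes the libraries of a group lay far apart, and a similar gap was found under the other antibody. KIF4A shares 13.5% of its 50-base stretches with KIF4B and KIF4CP, and its value is uncertain to that extent.

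KIF23, which bundles midzone microtubules in cytokinesis, was the mitotic kinesin with the largest difference between the groups. It was at 2.60 and 0.817 FPKM in IgG RIP and at 7.82 and 2.55 FPKM in KIAA1429 RIP. The groups overlapped, because library 2 of KIAA1429 RIP was just below library 1 of IgG RIP, and the difference was 1.13 (SE 0.66, adjusted p = 0.997 by limma). KIF18B and KIF2C, which destabilise microtubule ends, were among the 6 lowest differences of the motor genes, at -0.31 (SE 0.48) and -0.27 (SE 0.69), with overlapping groups.

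**Figure D2:**
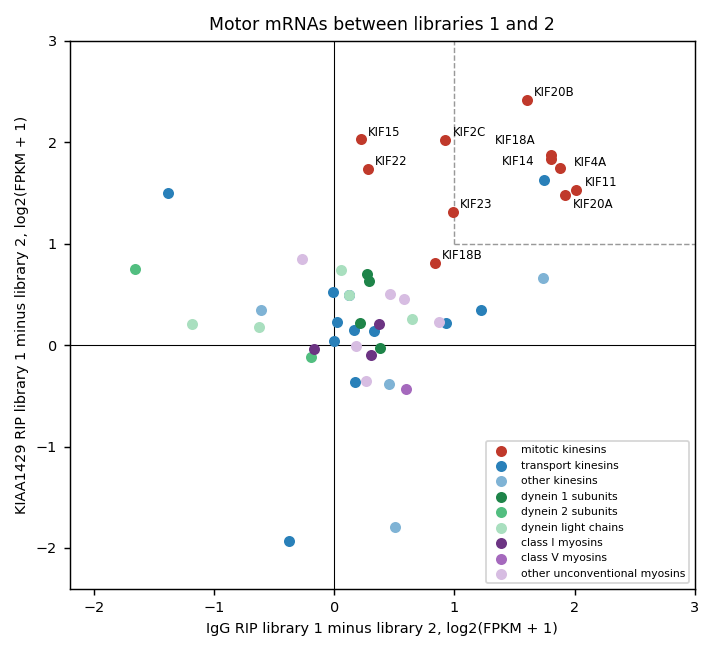
Library 1 minus library 2 on the log2(FPKM + 1) scale in IgG RIP (x axis) and in KIAA1429 RIP (y axis) for 48 of the 49 tested motor genes, coloured by role, with a dashed corner where both exceed 1. The mitotic kinesins all lie above 0 on both axes, and 6 of them and KIF21A lie in the corner.

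A further 10 genes of the cell cycle, among them MKI67, TOP2A, CDK1 and AURKA, were added after the values of the kinesins were seen. Library 1 was the higher in both groups for 10 of the 10, by over 1 in both groups for 4. The mitotic motor CENPE, which has no KIF number, was at 2.97 and 0.622 FPKM in IgG RIP and at 6.90 and 1.77 FPKM in KIAA1429 RIP. KIFC1, another kinesin outside the name rule, was at 21.8 and 16.4 FPKM and at 20.2 and 2.95 FPKM. Its library 1 minus library 2 was thus 0.39 in IgG RIP and 2.42 in KIAA1429 RIP, a large split under a single antibody. Kinesins outside the mitotic list had a median of 0.17 in IgG RIP and 0.22 in KIAA1429 RIP for library 1 minus library 2, beside 1.60 and 1.74 for the mitotic list. Base composition also moved with the libraries. In the quartile of all genes with the lowest GC content, which held 5 of the 11 mitotic kinesins, the median of library 1 minus library 2 was 0.42 in IgG RIP and 0.18 in KIAA1429 RIP, and 4.77% of genes were above 1 in both groups. By GC quartile, from lowest to highest, this held for 4 of 5, 2 of 3, 0 of 1 and 0 of 2 mitotic kinesins. The shares over all genes were 4.77%, 2.46%, 2.82% and 2.06% in the same order. With 1 to 5 mitotic kinesins in a quartile, the counts are a description. The parts of base composition and cell cycle in the split of the mitotic kinesins were not tested.

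Single transcripts were compared because reads of a gene can be assigned to its transcripts differently in each library. The motor genes had 136 listed transcripts, 115 of them of the type protein_coding, and 91 had a mean of at least 1 FPKM. Of these, 0 passed the adjusted threshold by limma in either direction (background 0.0%), 2 had an unadjusted p under 0.05 and were higher in KIAA1429 RIP (background 3.03%) and 2 were lower (background 2.33%). A difference above 1 was found in 18 (background 16.6%) and below -1 in 7 (background 15.9%), and the groups did not overlap in 21 (23.1%; background 29.7%). Several transcripts were listed for 32 motor genes, of which 30 had a total above 0 in all 4 libraries. The leading transcript was the same in all 4 libraries for 20 of the 30. It differed between the libraries of IgG RIP for 6 and between those of KIAA1429 RIP for 7.

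KIF1B, a long-range transporter of mitochondria and synaptic vesicle precursors, had overlapping totals but transcripts that separated the groups. The total in IgG RIP was 19.0 and 9.48 FPKM, and in KIAA1429 RIP it was 14.3 and 12.1 FPKM. KIF1B-204, which holds the microexon printed above, was at 5.63 and 3.87 FPKM in IgG RIP and listed at 0 in both KIAA1429 RIP libraries. KIF1B-201, which skips it, was at 0.334 FPKM and 0 in IgG RIP and at 3.26 and 2.91 FPKM in KIAA1429 RIP. The transcripts thus went in opposite directions, with differences of -2.51 (SE 0.69, adjusted p = 0.819) and 1.82 (SE 0.72, adjusted p = 0.879) by limma. KIF1B-204 has a further coding exon of 42 bases and an exon longer by 78 coding bases that KIF1B-201 lacks. The leading transcript of the gene was KIF1B-205 in all 4 libraries, and its exons were not compared.

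KIF13A also had transcripts that went in opposite directions. Its leading transcript was KIF13A-203, except in library 2 of KIAA1429 RIP, where KIF13A-201 led. KIF13A-204, without the cassette exon, was at 6.40 and 6.23 FPKM in IgG RIP and listed at 0 in both KIAA1429 RIP libraries (difference -2.87, SE 0.62, adjusted p = 0.696 by limma). KIF13A-201, with the exon, was listed at 0 and at 5.42 FPKM in IgG RIP and was at 6.57 and 10.8 FPKM in KIAA1429 RIP (difference 1.90, SE 1.02, adjusted p = 0.879 by limma). The first separated the groups fully, whereas the IgG RIP libraries differed widely in the second. A value above 0 in both libraries of IgG RIP and 0 in both of KIAA1429 RIP was found in 2.13% of all 23375 transcripts tested, and the reverse in 2.36%. Such transcripts, KIF1B-204 and KIF13A-204 among them, passed the filter through a single group, so these shares are a description.

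**Figure D3:**
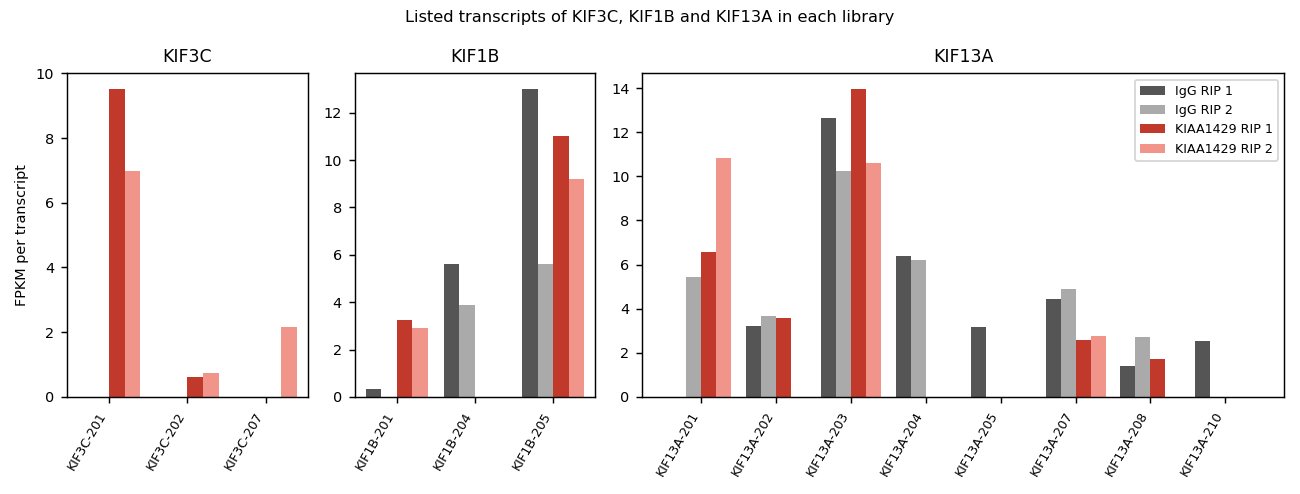
FPKM of each listed transcript (y axis, from 0) of KIF3C, KIF1B and KIF13A, with a bar for each library, grey for IgG RIP and red for KIAA1429 RIP. KIF1B-204 and KIF13A-204 have bars in IgG RIP only, and KIF3C has bars in KIAA1429 RIP only.

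The other transcripts with the largest differences each rested on a single library. MYO10-210, of a myosin that walks along filopodia, was at 27.0 FPKM in library 1 of IgG RIP, listed at 0 in library 2, and at 0.269 and 0.258 FPKM in KIAA1429 RIP. KIF1C-204 was at 19.5 FPKM in library 1 of KIAA1429 RIP and at most 0.308 FPKM in the others, and MYO1D-206 was at 17.0 FPKM in library 2 of KIAA1429 RIP and at most 0.385 FPKM in the others. MYO1D-212 and the most abundant transcript of DYNC1I2 were low only in library 2 of KIAA1429 RIP, at 0 and 0.306 FPKM. Such values differ between libraries of a group as much as between groups.

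The genes that work with the motors were compared by lists, and 0 genes of any list passed the adjusted threshold by limma. In dynactin, the activator complex of dynein, 8 of 12 differences were above 0, beside 51.4% of all genes, and the groups did not overlap in 3 higher genes (DCTN2, DCTN6 and CAPZA2) and 2 lower ones (DCTN1 and ACTR1A), against backgrounds of 16.6% and 15.2%. DCTN2, a subunit of the dynactin shoulder, was at 29.6 and 28.7 FPKM in IgG RIP and at 57.8 and 54.6 FPKM in KIAA1429 RIP. Both KIAA1429 RIP libraries were well above IgG RIP (difference 0.92, SE 0.28, adjusted p = 0.993 by limma). DCTN1, the subunit that binds microtubules, was at 53.5 and 40.2 FPKM in IgG RIP and at 39.2 and 32.7 FPKM in KIAA1429 RIP, lower in both KIAA1429 RIP libraries (difference -0.37, SE 0.31). Of 14 tested activators and regulators of dynein, 5 differences were above 0 and 9 below. The groups did not overlap in 3 higher genes and 3 lower ones, with RILP at 1.18 (SE 0.64) and NINL at -1.08 (SE 0.56) among them. NUMA1, which anchors dynein at spindle poles, was at 43.0 and 30.5 FPKM in IgG RIP and at 17.0 and 16.6 FPKM in KIAA1429 RIP, with the groups apart in the opposite direction to DCTN2 (difference -1.06, SE 0.32, adjusted p = 0.993 by limma).

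The chains of conventional myosin II were split by kind. All 5 tested light chains (MYL6, MYL6B, MYL9, MYL12A and MYL12B) were higher in both KIAA1429 RIP libraries than in both IgG RIP libraries, against a background of 16.6% of all genes, whereas the groups overlapped in the heavy chains MYH9 and MYH10. MYL9, a regulatory light chain, was at 18.6 and 25.8 FPKM in IgG RIP and at 67.5 and 39.5 FPKM in KIAA1429 RIP (difference 1.20, SE 0.37, adjusted p = 0.993 by limma). The median length of the most abundant transcripts of this list, heavy chains included, was 1163 bases, and that of MYL9 had 2786. The part of length was not tested. Of 11 tested partners of kinesin and kinesins outside the name rule, 6 differences were above 0 and 5 below. Of 9 regulators of myosin 5 were above 0 and 4 below, beside 51.4% of all genes above 0.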

How the data were processed

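KIAA1429 RIP and IgG RIP were sequenced from HCCLM3 cells, with 2 libraries in each group, and groups were taken from the labels. The authors selected polyadenylated RNA, used HISAT2 to align reads to GRCh37/hg19 according to the methods, and deposited FPKM values per transcript for each library. The submitters' processing notes name Bowtie2 2.1.0. How FPKM was estimated, on which annotation release, and how transcripts were selected for listing are not given in the sources used here. The higher of a listed transcript's group means was never under 0.500 FPKM. The depth per library is unknown, so precision was judged from the replicates.

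FPKM was summed per gene name. Genes, and separately transcripts, were kept from a mean of 1 FPKM upward, and log2(FPKM + 1) was compared two-sided by limma 3.58.1 (R 4.3.3; eBayes with trend), with Benjamini-Hochberg adjustment over all tested. The study's test needs counts and was not run. A check on simulated data required raised genes to be called only at a spread far below the fitted one. Passing it does not show that a raised gene would be called with 2 libraries in each group. Unless p is called unadjusted, it is adjusted. Named were all dynein subunits, the 3 highest kinesins and myosins by level, the 6 highest and 6 lowest differences, members with an unadjusted p under 0.05, and the 5 highest and 5 lowest transcripts. A gene among these is not reported here. KIF3B, the examples among mitotic kinesins and the companion genes with values were named after their values were seen, and so was the choice of DYNC2LI1 transcripts. The members and lists were chosen with earlier results of these data known. Sequences, lengths, GC content and shared 50-base stretches come from GENCODE v44 on GRCh37, which matched 52 of the 53 genes. Alternatives were other pseudocounts (0.1, 0.01), filters (none, 5 FPKM), scaling to the median, the replicate block, quantile normalization, no trend in limma, the most abundant transcript and leaving out each library.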

Additional observations from a re-analysis of the deposited data

How the results depend on the processing

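Adding the replicate number as a block, which the labels give without saying what it shares, raised the motor genes past the adjusted threshold from 0 to 1, KIF3C (adjusted p = 0.037), beside 13 of all genes. Deviations of same-numbered libraries correlated at 0.19 over gene totals and 0.03 over transcripts. The other alternatives gave 0 motor genes past the threshold in either direction, and 0 motor transcripts were past it under the alternatives run for transcripts, the block included. The count of motor genes at least 2-fold higher was 4, and ran from 3 to 9 when single libraries were left out. The count at least 2-fold lower was 0, became 1 with a pseudocount of 0.1, 1 with 0.01 and 1 with the most abundant transcript, and ran from 1 to 5 when single libraries were left out, where the lone library of a group was assumed to vary like the other group. The median difference ran from -0.22 to 0.38 when single libraries were left out. The replicate block and the fit without trend cannot change a difference, and of the 216 values of 24 genes under the 9 alternatives that can, 29 had the opposite sign to the reported one, in 18 genes. DYNC1LI1, DYNC1LI2, DYNLRB1, KIF23, KIF3C and MYO9B kept their sign. The KIF3C difference was 6.66 with a pseudocount of 0.1 and 9.97 with 0.01, by construction. The split of the mitotic kinesins between libraries 1 and 2 was checked with alternatives chosen after seeing the data, which gave 6 or 7 genes in place of 6. Unknown depth limits what the low values can show.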
